A study of Homo sapiens with 18 samples.

Results

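IGF2, H19 and 7 other genes of the insulin-like growth factor (IGF) pathway were followed through neural induction of the human pluripotent stem cell line H1, an established wild-type line. The 9 genes were the ligand gene IGF2, its imprinted neighbour H19, the receptor genes IGF1R, INSR and IGF2R, and the binding protein genes IGFBP2, IGFBP3, IGFBP4 and IGFBP5. They were chosen by symbol among the 37550 rows of a table of transcript abundance, and 8 of the 9 had a row. H19 is not analysed here. IGF2 was put on the list because it was high in day-4 cells of posterior origin in these same data, so its levels there, and their differences from day 2, from anterior origin and between media, are given as a description. IGF2 is tested only among the other groups, and there not in its change from aNE to day 4.

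RNA was measured in 18 libraries, 2 biological replicates in each of 9 groups. Undifferentiated cells at day 0 are called hPSC. All other cells passed on day 1 through a definitive ectoderm medium with A8301, trametinib, C59 and LDN193189, inhibitors of the TGF-beta receptor, MEK, WNT secretion and BMP receptors. Anterior neural ectoderm (aNE) was then made by day 2 with A8301 at 1 µM, LDN193189 at 100 nM and C59 at 1 µM. Posterior neural ectoderm (pNE) was made by day 2 with the same A8301 and LDN193189, plus XAV939 at 1 µM, which blocks tankyrase and so WNT signalling, FGF2 at 20 ng/mL and TTNPB at 50 nM, an agonist of retinoic acid receptors. Both day-2 media also held thiazovivin, which helps cells survive passaging. Cells of either origin were carried to day 4 in forebrain (aNE_T, pNE_T), midbrain (aNE_M, pNE_M) or hindbrain medium (aNE_H, pNE_H). The forebrain medium of day 3 held XAV939, LDN193189 and FGF2, and the composition of the other day-4 media was not used here. The plating density was 37500 cells per cm2 in both day-2 groups. For collection at day 4 it was 150000 cells per cm2 with posterior origin and 75000 with anterior origin, so origin and plating density cannot be told apart at day 4.

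IGF2 is a secreted growth factor of the embryo that signals through the IGF1 receptor and the insulin receptor, both receptor tyrosine kinases. The IGF2 receptor, also called the cation-independent mannose-6-phosphate receptor, takes IGF2 up and delivers it to lysosomes. IGF binding proteins hold IGFs outside the cell and can limit or prolong their access to receptors, and the protease PAPPA releases IGF by cutting some of them. In most fetal tissues IGF2 is expressed from the paternal allele and H19 from the maternal allele, under a shared control region bound by CTCF.

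In the RefSeq annotation of GRCh38.p14, IGF2 lies at chr11:2129117-2149566 and H19 at chr11:1995176-2001266, 127850 bases apart. IGFBP2 (chr2:216632828-216664436) and IGFBP5 (chr2:216672105-216695549) are neighbours, 7668 bases apart on opposite strands. IGFBP3 lies at chr7:45912245-45921272 and IGFBP4 at chr17:40443450-40457725. The receptor genes lie at chr15:98648539-98964530 (IGF1R), chr6:159969082-160111504 (IGF2R) and chr19:7112265-7294414 (INSR).

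The upstream sequences of the 4 binding protein genes are shown because 3 of them were higher in forebrain medium than in the other day-4 media in cells of posterior origin, whereas IGFBP4 was not. Each is the 250 bases before an annotated RefSeq start, read 5′ to 3′ on the gene's own strand (GRCh38.p14), at chr7:45921273-45921522 on the minus strand for IGFBP3, chr2:216695550-216695799 on the minus strand for IGFBP5, chr2:216633170-216633419 on the plus strand for IGFBP2 and chr17:40443200-40443449 on the plus strand for IGFBP4. IGFBP2 has 3 annotated windows, and the one shown ends 25 bases from the start of its principal transcript in GENCODE. Capitals mark matches on either strand to GGGCGG (the GC box) or to TATANA (the TATA box, where N is any base), which overlap one another in IGFBP3.
IGFBP3: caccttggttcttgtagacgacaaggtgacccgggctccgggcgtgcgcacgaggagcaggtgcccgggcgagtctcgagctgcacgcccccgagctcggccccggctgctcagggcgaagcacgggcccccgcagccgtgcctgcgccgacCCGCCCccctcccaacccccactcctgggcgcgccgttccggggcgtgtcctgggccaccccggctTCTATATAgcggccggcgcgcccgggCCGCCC
IGFBP5: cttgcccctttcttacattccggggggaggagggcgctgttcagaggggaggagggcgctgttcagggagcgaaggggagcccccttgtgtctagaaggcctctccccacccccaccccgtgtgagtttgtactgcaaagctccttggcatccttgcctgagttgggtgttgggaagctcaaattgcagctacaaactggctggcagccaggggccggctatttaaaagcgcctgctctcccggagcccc
IGFBP2: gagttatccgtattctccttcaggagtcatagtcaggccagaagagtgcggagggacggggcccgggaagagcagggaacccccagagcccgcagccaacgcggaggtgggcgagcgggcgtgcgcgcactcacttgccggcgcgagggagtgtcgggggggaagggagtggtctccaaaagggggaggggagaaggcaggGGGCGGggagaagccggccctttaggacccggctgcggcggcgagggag
IGFBP4: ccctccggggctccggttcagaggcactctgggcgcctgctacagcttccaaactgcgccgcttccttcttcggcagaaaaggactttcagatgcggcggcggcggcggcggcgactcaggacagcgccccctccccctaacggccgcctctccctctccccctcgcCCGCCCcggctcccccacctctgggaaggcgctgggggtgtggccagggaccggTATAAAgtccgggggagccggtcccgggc

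A TATANA match on the gene strand began 30 bases before the start in IGFBP3 and 29 bases before it in IGFBP4, and none was found in the IGFBP2 and IGFBP5 windows. GGGCGG or its complement occurred 2 times in IGFBP3, 1 time each in IGFBP2 and IGFBP4, and 0 times in IGFBP5. Of the 35116 RefSeq windows of this length, 42.6% held a GC box match and 17.7% a TATA box match. The 3 genes that were higher in forebrain medium therefore did not share either set of letters in these windows.

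Values are in TPM, a measure of transcript abundance scaled by transcript length, so levels can be compared between genes. Differences are on the log2(TPM + 1) scale, with the standard error (SE) from limma. A gene was called higher or lower when its limma adjusted p was under 0.05 and its absolute log2 difference was at least 1. A gene was tested if 2 or more libraries had 1 TPM or more, which held for 17033 of the 37550 rows and for all 8 measured genes. TPM keeps no record of read number, so the depth behind each value is unknown. Replicate libraries correlated at r = 0.982 to 0.987 across tested genes, which are not independent replicates, and libraries of different groups at 0.879 to 0.968. The summed level of 4 pluripotency markers was 3865 to 3875 TPM in hPSC and at most 462 TPM elsewhere. That of 6 neural ectoderm markers was 308 to 318 TPM in hPSC and 426 to 1551 TPM in the 16 differentiated libraries. It was lowest among these in pNE_M, at 426 to 448 TPM, not far above hPSC.

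IGF2 was low in undifferentiated cells, at both day-2 stages and in all cells of anterior origin, and stood among the most abundant transcripts in all cells of posterior origin at day 4. It measured 1.03 and 0.889 TPM in the 2 hPSC libraries, 2.63 and 1.77 TPM in aNE, and 2.18 and 3.21 TPM in pNE. At day 4 in cells of anterior origin it measured 2.80 and 2.55 TPM in forebrain medium, 11.4 and 14.0 TPM in midbrain medium, and 3.80 and 3.12 TPM in hindbrain medium. In cells of posterior origin the values were 900.0 and 973 TPM in forebrain medium, 1064 and 1156 TPM in midbrain medium, and 1381 and 1175 TPM in hindbrain medium. The 6 libraries of posterior origin at day 4 lay apart from the other 12, with no value between 14.0 and 900.0 TPM. IGF2 ranked between 114 and 149 among the 37550 rows in these 6 libraries and between 8079 and 14459 in the other 12.

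In order of group means, IGF2 went from 0.961 ± 0.102 TPM (SD, n = 2) in hPSC through aNE at 2.20 ± 0.611 TPM, aNE_T at 2.67 ± 0.174 TPM, pNE at 2.70 ± 0.726 TPM and aNE_H at 3.46 ± 0.483 TPM to aNE_M at 12.7 ± 1.87 TPM. The last 3 places were held by pNE_T at 936 ± 51.3 TPM, pNE_M at 1110 ± 65.5 TPM and pNE_H at 1278 ± 146 TPM. The libraries of aNE, aNE_T and pNE interleaved, as did those of pNE and aNE_H, whereas the libraries of pNE_T, pNE_M and pNE_H did not overlap. The day-4 levels of posterior origin exceeded those of anterior origin in the same medium by 7.99 (forebrain), 6.35 (midbrain) and 8.16 (hindbrain) on the log2 scale. From pNE at day 2 the difference was 8.0, 8.24 and 8.44 in the same order, and from aNE it was 0.21, 2.10 and 0.49. In bulk RNA, a change in the share of cells that express a gene and a change in RNA per cell cannot be told apart.

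**Figure D1:**
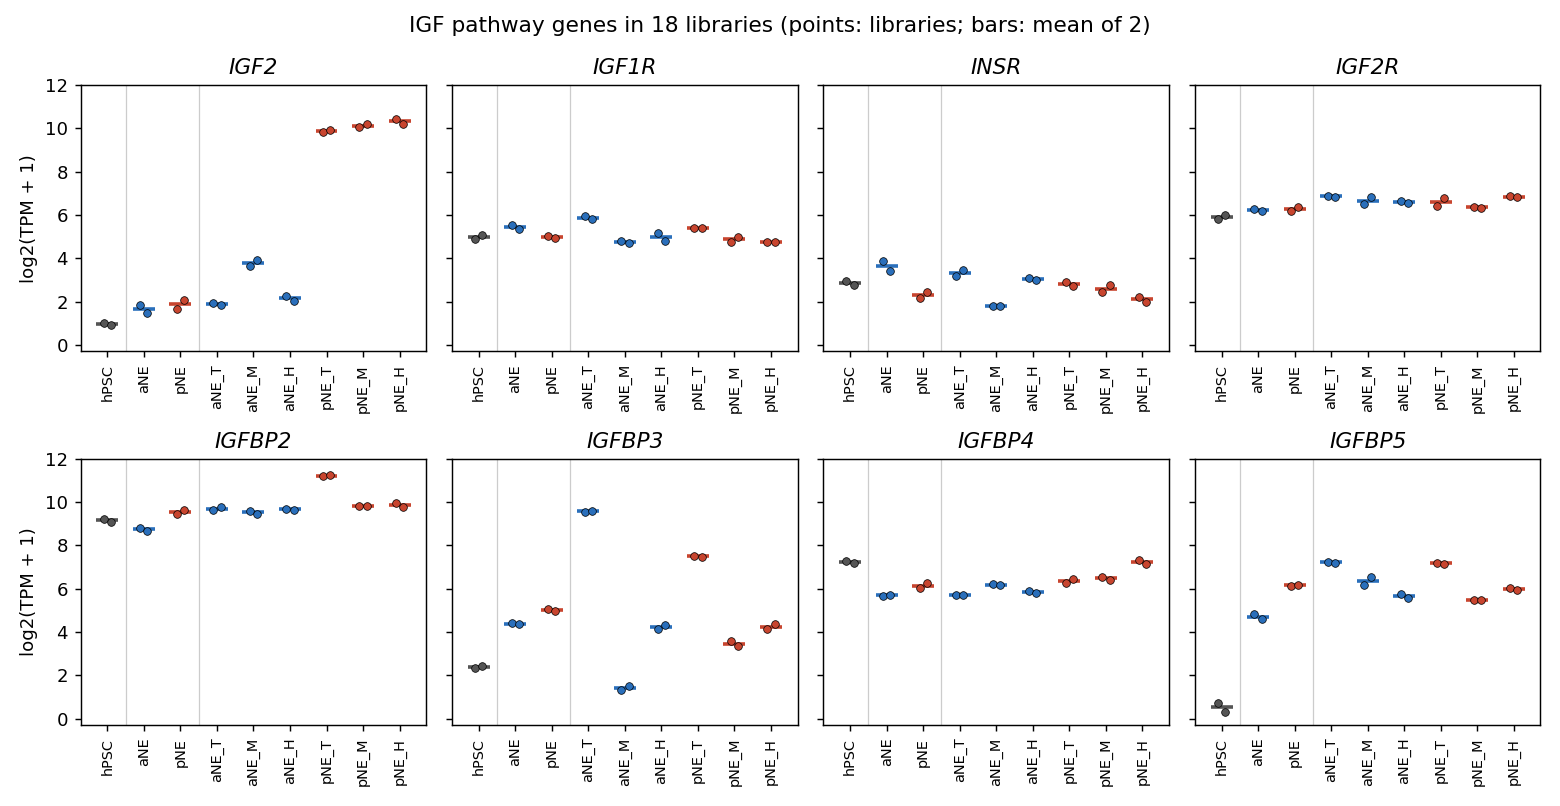
Levels of the 8 measured genes in the 18 libraries. The vertical axis is log2(TPM + 1) and the horizontal axis the 9 groups; points are libraries, bars the mean of 2, grey is hPSC, blue anterior origin and red posterior origin. IGF2 separates the 6 day-4 libraries of posterior origin from the other 12, IGFBP3 is highest in aNE_T, and IGF2R stays between 55.7 and 116 TPM.

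IGF2 was tested, with the fit to all genes, among hPSC, aNE and pNE and between media in cells of anterior origin. Its changes from aNE to day 4 were not tested, because its low anterior day-4 values are part of the contrast it was picked for. The tests between anterior media use those same values. From hPSC to day 2 the log2 difference was 0.69 ± 0.16 (SE) in aNE (limma, adjusted p = 0.00375) and 0.90 ± 0.16 in pNE (adjusted p = 6.63e-04), both short of the size for a call. With a pseudocount of 0.1 in place of 1 these differences were 1.09 and 1.38 and both were called, and without replicate 1 of pNE the second was 1.10. Between pNE and aNE at day 2 the difference was 0.21 ± 0.16 (adjusted p = 0.476), with libraries that overlapped.

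Within cells of anterior origin, IGF2 was higher in midbrain medium than in forebrain medium (aNE_T minus aNE_M -1.89 ± 0.16, limma adjusted p = 1.13e-06) and than in hindbrain medium (aNE_M minus aNE_H 1.61 ± 0.16, adjusted p = 1.23e-05, and 0.0624 in a fit of these 4 libraries alone). Within cells of posterior origin, where no test is given, the difference of forebrain minus midbrain medium was -0.25, of forebrain minus hindbrain -0.44 and of midbrain minus hindbrain -0.20, each with an SE of 0.16.

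Markers of other lineages moved with some of these groups. A list of 10 mesendoderm and mesoderm markers summed to 112 to 134 TPM in aNE_M, of which MIXL1, an early mesendoderm factor, gave 78.0 and 94.9 TPM, against 4.64 to 5.36 TPM in aNE_T and aNE_H. In cells of posterior origin the list summed to 21.3 to 26.5 TPM in forebrain medium, 43.6 to 43.7 TPM in midbrain medium and 23.0 to 23.4 TPM in hindbrain medium, and TBXT, MESP2 and MSGN1 were listed at 0 in both pNE_H libraries. MEOX1, a somite factor, made up 14.0 to 28.1 TPM of these sums, and reached 13.7 and 16.4 TPM in aNE_M but no more than 1.42 TPM in aNE_T and aNE_H. At least 1 TPM in both libraries was reached by 2 of the 10 markers in pNE_T and pNE_H, by 4 in pNE_M and aNE_M, and by 1 in aNE_T and aNE_H.

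A list of 8 endoderm markers summed to 39.8 to 45.6 TPM in pNE_T, 28.8 to 32.9 TPM in pNE_H and 6.78 to 7.51 TPM in pNE_M, against 3.29 to 10.97 TPM in day-4 cells of anterior origin. For SOX17, a defining endoderm factor, both libraries of pNE_M, aNE_H, aNE_M and aNE_T were listed at 0. AFP, an early endoderm product, gave 26.3 and 29.7 TPM in pNE_T, 14.7 and 14.6 TPM in pNE_H, and 1.49 and 1.01 TPM in pNE_M. A list of 7 mesenchyme markers summed to 47.6 to 83.6 TPM in day-4 cells of posterior origin and 46.6 to 81.2 TPM in those of anterior origin, ranges that overlap.

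Sums of other marker lists also differed between groups. A list of 5 surface ectoderm markers summed to 539 to 604 TPM in pNE_T, 1054 to 1126 TPM in pNE_M and 709 to 801 TPM in pNE_H, against 284 to 287, 478 to 502 and 670 to 724 TPM in aNE_T, aNE_M and aNE_H, with an overlap in hindbrain medium. KRT18, a keratin of simple epithelia, made up nearly all of this, with 1049 and 1125 TPM in pNE_M, while TP63, KRT5 and KRT14 stayed under 1 TPM in every day-4 library. A list of 8 trophoblast and amnion markers summed to 42.1 to 54.3 TPM in pNE_T and 70.6 to 75.0 TPM in pNE_H, above the 21.3 to 21.6 TPM of aNE_T and 19.4 to 20.5 TPM of aNE_H. It reached 19.4 to 20.1 TPM in pNE_M and 9.10 to 17.6 TPM in aNE_M. HAND1 in pNE_T, ISL1 in pNE_M and VTCN1 in pNE_H were listed at 0 in both libraries.

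A list of 6 neural crest markers had lower sums with posterior origin, at 23.7 to 24.4 against 26.8 to 28.1 TPM in forebrain medium, 76.0 to 87.1 against 135 to 145 TPM in midbrain medium and 38.4 to 41.4 against 92.7 to 99.6 TPM in hindbrain medium. A list of 4 endothelium and blood markers summed to 24.2 to 24.5, 0.920 to 1.10 and 9.43 to 10.7 TPM in pNE_T, pNE_M and pNE_H, and to 23.7 to 23.9, 5.44 to 7.36 and 14.6 to 15.4 TPM in aNE_T, aNE_M and aNE_H. The part of any of these cell types in the IGF2 level was not tested.

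The INS-IGF2 readthrough, annotated at chr11:2129117-2161209 over the whole of IGF2, was the gene with the pattern most like that of IGF2. Pearson's r over the 9 group means of log2(TPM + 1) was 0.994 for INS-IGF2, 0.983 for PTGR3, 0.981 for HOXD3, 0.978 for TSHZ1 and 0.973 for HOXB3, the 5 highest of 12451 genes. INS-IGF2 averaged 7.12, 8.06 and 8.97 TPM in pNE_T, pNE_M and pNE_H and at most 0.440 TPM elsewhere, which is 0.577% to 0.932% of IGF2 in the 6 high libraries. The transcripts share sequence, so the split between them depends on the authors' quantification. These correlations describe 9 means and rest on the gap between the 3 high groups and the rest, which IGF2 was chosen for.

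Among the receptor genes, IGF1R was called in 1 comparison, IGF2R in none and INSR in several. IGF1R, the main signalling receptor of IGFs, ranged from 25.1 to 60.2 TPM over all 18 libraries, with the highest values, 60.2 and 54.6 TPM, in aNE_T. It was 26.9 and 25.1 TPM in aNE_M, and its one call was the higher level in aNE_T than in aNE_M (1.11 ± 0.12, limma adjusted p = 1.52e-05). IGF2R, the clearance receptor, ranged from 55.7 to 116 TPM and was not called with limma in any of the 18 pairs of groups or 3 differences between origins, although 6 of these 21 had an adjusted p under 0.05. Its lowest values, 55.7 and 61.9 TPM, were those of hPSC, and its highest were in aNE_T and pNE_H, at 113 to 116 TPM.

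INSR was the receptor gene called between origins at day 2. IGF1R also lay lower in pNE, at 31.6 and 29.9 TPM against 44.9 and 39.9 TPM in aNE, short of the size for a call. INSR measured 6.71 and 5.84 TPM in hPSC, 13.6 and 9.50 TPM in aNE, and 3.54 and 4.38 TPM in pNE. The pNE libraries lay below both aNE libraries (pNE minus aNE -1.33 ± 0.19, limma adjusted p = 3.23e-04), and in a fit of these 4 libraries alone the adjusted p was 0.0959. At day 4 it was 8.13 and 10.00 TPM in aNE_T, 2.44 and 2.49 TPM in aNE_M, and 7.56 and 6.91 TPM in aNE_H. It was therefore lower in aNE_M than in aNE (-1.84 ± 0.19, adjusted p = 5.68e-06), than in aNE_T and than in aNE_H (-1.25 ± 0.19, adjusted p = 4.19e-04, and 0.0586 in the fit of those 4 libraries). In cells of posterior origin INSR lay between 2.95 and 6.52 TPM at day 4, and none of its changes from pNE was called.

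IGFBP2, a binding protein abundant in fetal brain, had the highest level of the 4 binding protein transcripts in every library, with IGFBP3 close behind it in aNE_T. IGFBP2 measured 601 and 537 TPM in hPSC, 450.4 and 402 TPM in aNE, and 692 and 801 TPM in pNE. At day 4 it was between 697 and 864 TPM in cells of anterior origin and between 858 and 991 TPM in pNE_M and pNE_H. The pNE_T libraries stood apart at 2373 and 2395 TPM. IGFBP2 was higher in pNE_T than in aNE_T (1.52 ± 0.09, limma adjusted p = 6.75e-08), than in pNE at day 2 (1.68 ± 0.09, adjusted p = 2.68e-08), than in pNE_M (1.41, adjusted p = 1.21e-07) and than in pNE_H (1.37, adjusted p = 5.72e-07).

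IGFBP3, which carries most circulating IGF in the adult, ranged from 1.51 to 769 TPM and differed most between media. It measured 3.97 and 4.44 TPM in hPSC, 20.3 and 19.6 TPM in aNE, and 32.8 and 30.1 TPM in pNE. In forebrain medium it reached 745 and 769 TPM in cells of anterior origin and 181 and 178 TPM in cells of posterior origin. In midbrain medium it was 1.51 and 1.87 TPM (anterior) and 11.1 and 9.13 TPM (posterior), and in hindbrain medium 16.8 and 18.8 TPM and 16.5 and 19.6 TPM. The order of the origins thus turned with the medium, with posterior origin lower in forebrain medium (-2.07 ± 0.11, limma adjusted p = 2.35e-08), higher in midbrain medium (2.04 ± 0.11, adjusted p = 4.11e-08) and overlapping in hindbrain medium (0.02 ± 0.11, adjusted p = 0.953).

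IGFBP5, which binds IGFs and extracellular matrix, was lowest in hPSC, at 0.658 and 0.252 TPM, and measured 27.1 and 23.1 TPM in aNE and 68.7 and 71.0 TPM in pNE. It was higher in pNE than in aNE (1.45 ± 0.14, limma adjusted p = 1.08e-05). In forebrain medium it reached 149.9 and 145 TPM in cells of anterior origin and 147 and 139 TPM in cells of posterior origin, which did not differ by call (-0.05 ± 0.14, adjusted p = 0.872). It was 70.6 and 90.6 TPM in aNE_M, 52.4 and 45.9 TPM in aNE_H, 43.6 and 44.1 TPM in pNE_M, and 63.6 and 60.2 TPM in pNE_H.

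IGFBP4, a substrate of PAPPA, was highest in hPSC and pNE_H. It measured 155 and 145 TPM in hPSC, 50.0 and 51.6 TPM in aNE, and 63.4 and 74.6 TPM in pNE, so both day-2 groups lay below hPSC. At day 4 it was between 50.8 and 72.4 TPM in cells of anterior origin, 74.8 and 86.9 TPM in pNE_T, and 90.9 and 84.4 TPM in pNE_M. In pNE_H, at 157 and 139 TPM, it overlapped its level in hPSC and was higher than in aNE_H (1.35 ± 0.09, limma adjusted p = 2.62e-07).

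The 4 binding protein transcripts together came to 496 to 977 TPM through day 2. At day 4 their sum was 1741 and 1829 TPM in aNE_T, 2775 and 2798 TPM in pNE_T, and 860 to 1229 TPM in the other 4 groups. IGFBP3 made up 42.8% and 42.0% of the sum in aNE_T and 6.51% and 6.35% in pNE_T, where IGFBP2 made up 85.5% and 85.6%. The IGF2 level was 0.324 and 0.348 of the sum in pNE_T, between 1.02 and 1.13 of it in pNE_M and pNE_H, and at most 0.0163 of it in the other 12 libraries. Both groups in forebrain medium thus had large sums, with little IGF2 in aNE_T and much in pNE_T.

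**Figure D2:**
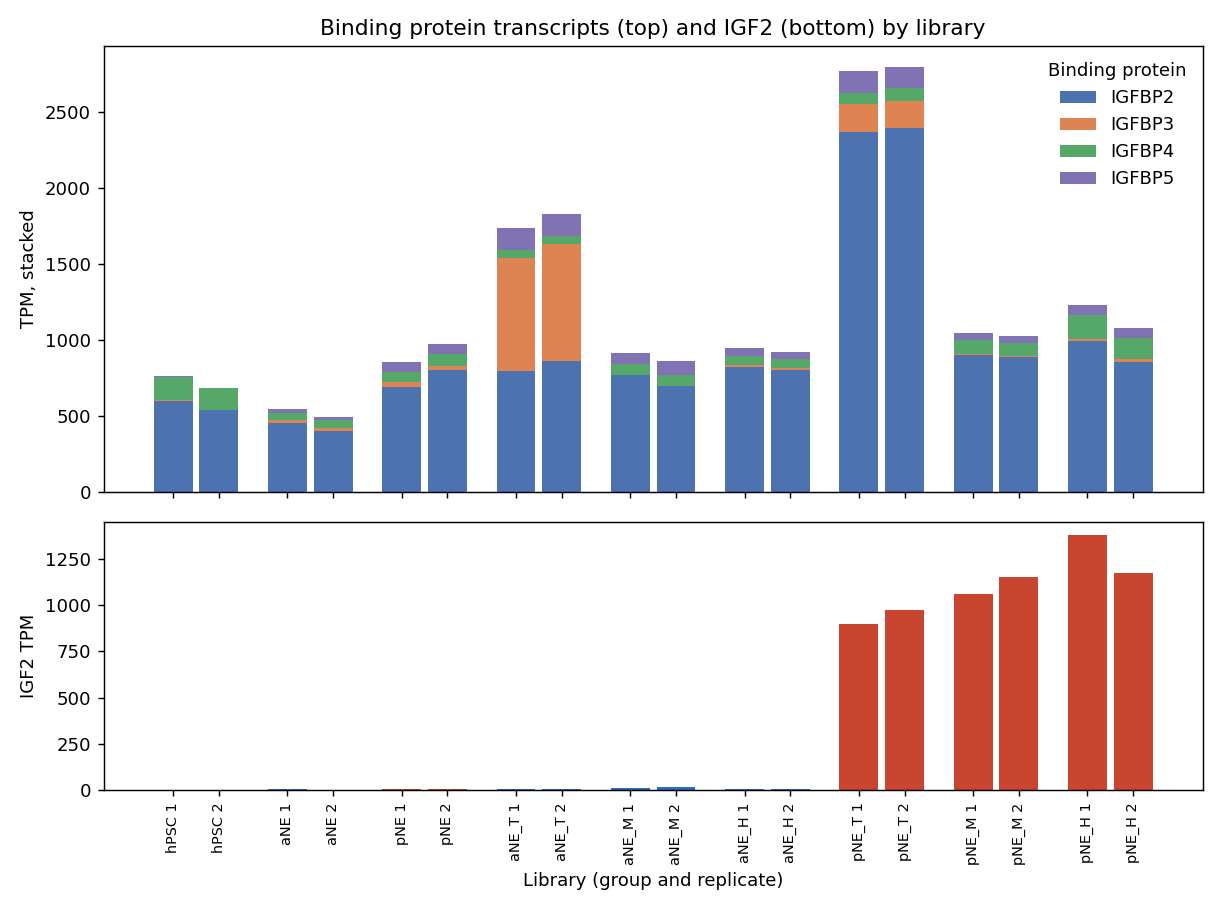
Binding protein and ligand transcripts in each library, in TPM on linear axes starting at 0. The upper panel stacks IGFBP2, IGFBP3, IGFBP4 and IGFBP5 and the lower panel shows IGF2 (grey hPSC, blue anterior, red posterior origin). The sums are highest in pNE_T, at 2775 and 2798 TPM, and IGF2 is visible as tall bars only in the 6 day-4 libraries of posterior origin.

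Entry into neural ectoderm asked which of these genes change between hPSC and day 2. The same calls were made in both populations, which share the hPSC libraries. In aNE, 3 of 8 genes were called, beside 13.5% of all tested genes: IGFBP3 (2.01 ± 0.11, limma adjusted p = 2.36e-08) and IGFBP5 (4.17 ± 0.14, adjusted p = 1.71e-10) rose and IGFBP4 fell (-1.54 ± 0.09, adjusted p = 4.90e-08). In pNE, 3 of 8 genes were called beside 12.9% of all genes, with IGFBP3 at 2.64, IGFBP5 at 5.62 and IGFBP4 at -1.11. Without replicate 1 of pNE the last was -0.997 and short of a call. The median difference of the 8 genes was 0.57 in aNE and 0.39 in pNE, and that of all tested genes 0.06 and 0.05.

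Between pNE and aNE at day 2, 2 of 8 genes were called, beside 3.85% of all genes. These were IGFBP5, higher in pNE, and INSR, lower in pNE. The other binding proteins lay on the side of pNE with smaller differences, 0.81 for IGFBP2, 0.63 for IGFBP3 and 0.43 for IGFBP4, all with a limma adjusted p of 0.00741 or less.

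At day 4, cells of posterior origin were set against cells of anterior origin in the same medium for the 7 genes other than IGF2. In forebrain medium 2 of 7 were called beside 7.77% of all genes, IGFBP2 higher and IGFBP3 lower. In midbrain medium 1 of 7 was called beside 5.74%, IGFBP3 higher, and in hindbrain medium 1 of 7 beside 6.83%, IGFBP4 higher. No gene of the 7 was called in more than 1 medium in the same direction, which depends on the size for a call. Without a call, mean IGFBP4 was also higher with posterior origin in forebrain (80.8 against 50.8 TPM) and midbrain medium (87.7 against 71.5 TPM). Mean IGFBP2 was likewise higher, without a call, in midbrain (894 against 733 TPM) and hindbrain medium (925 against 810 TPM). The difference of each other gene changed sign between media. The median of the 7 was -0.26, 0.29 and 0.19 in forebrain, midbrain and hindbrain medium, and that of all tested genes -0.05, -0.04 and -0.04.

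**Figure D3:**
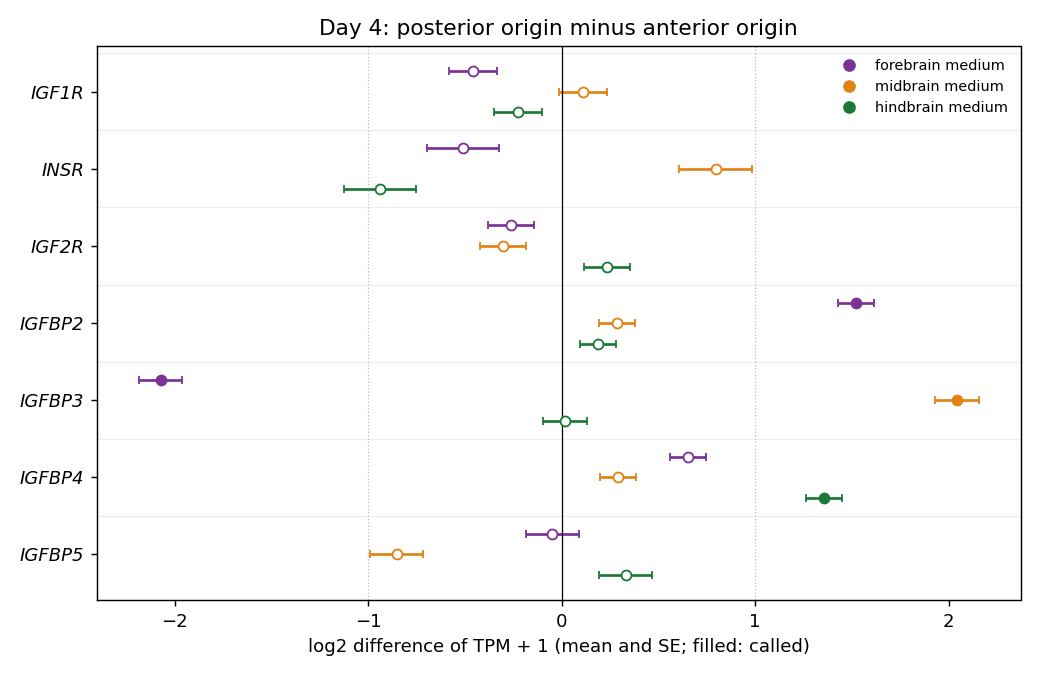
Difference between posterior and anterior origin at day 4 for the 7 genes other than IGF2. The horizontal axis is the log2 difference of TPM + 1 with its SE, colours are the media, filled points passed the call and dotted lines mark a difference of 1. IGFBP3 lies at -2.07 in forebrain medium and 2.04 in midbrain medium.

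The change from day 2 to day 4 was also read within each origin. In cells of anterior origin, 2 of 7 genes were called in forebrain medium, beside 9.03% of all genes, and both rose: IGFBP3 by 5.18 ± 0.11 (limma adjusted p = 1.32e-11) and IGFBP5 by 2.51 ± 0.14 (adjusted p = 2.77e-08). In midbrain medium 3 of 7 were called beside 12% of all genes, with IGFBP5 up by 1.64 and IGFBP3 and INSR down, at -2.96 and -1.84. In hindbrain medium limma called 0 of 7 beside 10.1% of all genes, with 5 of 7 at an unadjusted p under 0.05. All 5 also had a limma adjusted p under 0.05 and fell short only of the size for a call. IGFBP2 was close to a call in forebrain (0.96) and hindbrain medium (0.93). Without replicate 1 of aNE, 8 calls were made over the 3 media in place of 5, the added ones being IGFBP2 in forebrain (1.04) and hindbrain medium (1.01) and IGFBP5 in hindbrain medium (1.06).

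In cells of posterior origin, 3 of 7 genes were called in forebrain medium, beside 10.2% of all genes, and all 3 rose: IGFBP3 by 2.47 ± 0.11 (limma adjusted p = 5.43e-09), IGFBP2 by 1.68 ± 0.09 (adjusted p = 2.68e-08) and IGFBP5 by 1.02 ± 0.14 (adjusted p = 8.05e-05). In midbrain medium 1 of 7 was called beside 12.7%, with IGFBP3 down at -1.55. In hindbrain medium 1 of 7 was called beside 12.3%, with IGFBP4 up by 1.09. Without replicate 1 of pNE, 3 calls were left of 5, since IGFBP5 in forebrain medium came to 0.998 and IGFBP4 in hindbrain medium to 0.98. Without replicate 1 of pNE_T, IGFBP5 in forebrain medium came to 0.98.

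The test of the difference between origins in this change called 2 of 7 genes in forebrain medium beside 7.14% of all genes, 3 of 7 in midbrain medium beside 7.02%, and 1 of 7 in hindbrain medium beside 7.83%. In forebrain medium IGFBP3 and IGFBP5 rose less from pNE than from aNE, by -2.70 ± 0.16 (limma adjusted p = 1.45e-07) and -1.49 ± 0.19 (adjusted p = 1.57e-04). In midbrain medium the change of INSR was more positive from pNE (2.12 ± 0.26, adjusted p = 1.08e-04), as was that of IGFBP3 (1.41 ± 0.16, adjusted p = 4.80e-05), and that of IGFBP5 was more negative (-2.30 ± 0.19, adjusted p = 3.44e-06). In hindbrain medium IGFBP5 was more negative from pNE (-1.12 ± 0.19, adjusted p = 0.00142).

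**Figure D4:**
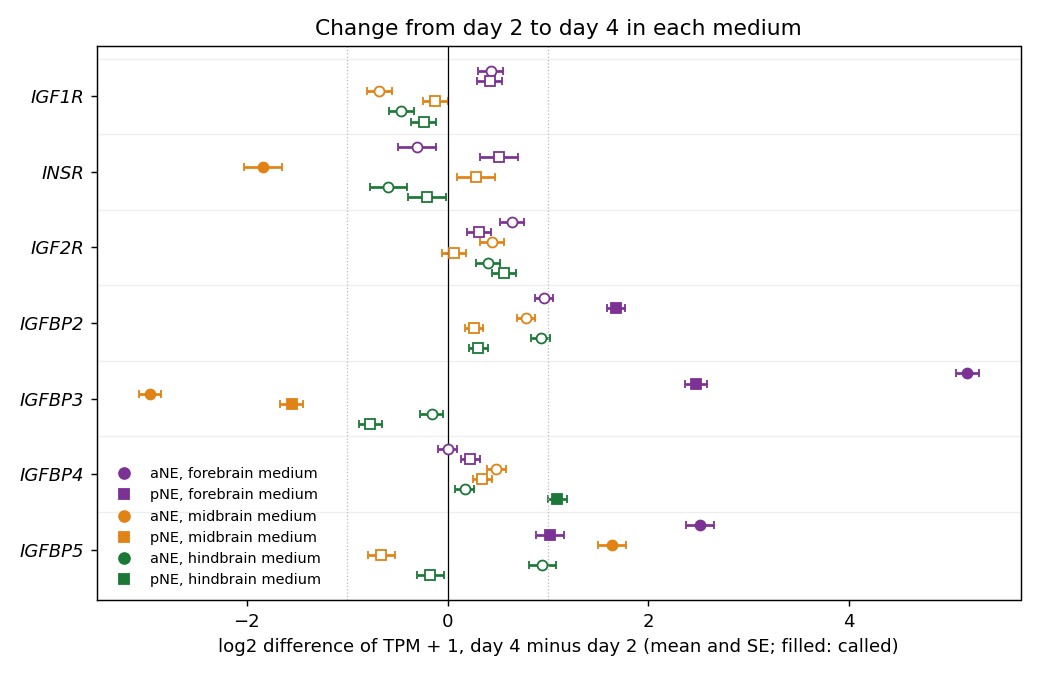
Change from day 2 to day 4 for the 7 genes other than IGF2. The horizontal axis is the log2 difference of TPM + 1 with its SE, circles are anterior and squares posterior origin, colours are media and filled symbols passed the call. IGFBP3 spans -2.96 in midbrain to 5.18 in forebrain medium in cells of anterior origin.

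The media were also compared with each other within an origin. In cells of anterior origin, for all 8 genes, forebrain against midbrain medium gave 4 calls beside 10.1% of all genes, with IGFBP3 (8.14), INSR (1.53) and IGF1R (1.11) higher and IGF2 lower. Forebrain against hindbrain medium gave 2 calls beside 6.6%, IGFBP3 (5.33) and IGFBP5 (1.57), both higher. Midbrain against hindbrain medium gave 3 calls beside 4.92%, IGF2 higher and INSR and IGFBP3 lower, the last at -2.81 (limma adjusted p = 3.05e-09).

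In cells of posterior origin, for the 7 genes other than IGF2, 3 of 7 were called between forebrain and midbrain medium, beside 8.6% of all genes, and 3 of 7 between forebrain and hindbrain medium, beside 5.03%. They were IGFBP2, IGFBP3 and IGFBP5 both times, all higher in forebrain medium. IGFBP3 differed by 4.03 and 3.24, IGFBP2 by 1.41 and 1.37, and IGFBP5 by 1.68 and 1.19, in that order, with limma adjusted p of 4.62e-05 or less. The 2 comparisons share the pNE_T libraries. Midbrain against hindbrain medium called 0 of 7 with limma beside 5.99% of all genes, and 5 of 7 had an unadjusted p under 0.05. Of these 5, 4 had a limma adjusted p under 0.05 and fell short only of the size for a call.

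Other genes of the IGF family included the ligands IGF1 and INS, further binding proteins, and the stanniocalcins STC1 and STC2, which inhibit PAPPA. Of 14 such genes 13 had a row and 8 were tested. INS was listed at 0 in every library, and IGF1 did not exceed 1.53 TPM. At day 4 in forebrain medium IGFBP6, PAPPA and STC2 were higher and STC1 lower with posterior origin, beside 7.77% of all genes called. In midbrain medium PAPPA and STC2 were higher, beside 5.74%. In hindbrain medium IGFBP6 and STC2 were higher and STC1 lower, beside 6.83%. INS-IGF2, the remaining call in each medium, shares its sequence with IGF2. It reached 1 TPM only in day-4 cells of posterior origin, so it is no separate result and is left out here.

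STC1 was lower with posterior origin in forebrain and hindbrain medium, at 1.29 and 0.811 TPM in pNE_T against 12.8 and 12.8 TPM in aNE_T (-2.76 ± 0.18, limma adjusted p = 1.42e-07) and 2.10 and 2.81 TPM in pNE_H against 10.5 and 8.43 TPM in aNE_H (-1.60). In midbrain medium it was 4.91 and 4.72 TPM in pNE_M against 2.28 and 3.11 TPM in aNE_M, a difference of 0.66 that was not called. STC2 was higher with posterior origin in all 3 media. It measured 453 and 474 TPM in pNE_T against 83.2 and 74.9 TPM in aNE_T (2.54 ± 0.09, limma adjusted p = 6.98e-10), 126 and 128 TPM in pNE_M against 27.5 and 30.6 TPM in aNE_M (2.09), and 261 and 231 TPM in pNE_H against 66.6 and 56.7 TPM in aNE_H (1.98). At day 2 it was 179 and 179.9 TPM in aNE and 259.9 and 298 TPM in pNE. STC2 thus fell in all 3 media from aNE, by 1.18, 2.59 and 1.53, and from pNE it fell in midbrain medium, by 1.13. From a mean of 279 TPM in pNE it went up to 463 TPM in pNE_T and to 246 TPM in pNE_H, neither of them called.

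IGFBP6, a binding protein with a preference for IGF2, was 39.2 and 43.2 TPM in pNE_T against 3.80 and 3.64 TPM in aNE_T (3.16 ± 0.16, limma adjusted p = 1.51e-08) and 20.4 and 16.3 TPM in pNE_H against 1.00 and 1.26 TPM in aNE_H (3.18). In midbrain medium IGFBP6 was 21.8 and 17.2 TPM in pNE_M against 9.30 and 9.32 TPM in aNE_M, which was not called. Its highest values, 87.3 and 102 TPM, were in pNE at day 2, and it fell from there in all 3 media. PAPPA measured 0.345 and 0.154 TPM in hPSC, 8.57 and 11.5 TPM in aNE, and 26.7 and 28.6 TPM in pNE. At day 4 it was higher with posterior origin in forebrain medium (2.66) and midbrain medium (1.51), while in hindbrain medium its means were 57.8 TPM in pNE_H and 44.1 TPM in aNE_H. IGFBP7, a secreted relative with weak IGF binding, rose in midbrain medium from both origins, to 4.81 and 4.42 TPM in aNE_M and 9.57 and 8.58 TPM in pNE_M (log2 differences of 1.93 and 2.82 from day 2).

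Of 30 genes of insulin and IGF receptor signalling, all tested, 2 were higher and 2 lower than in hPSC at day 2, the same genes in aNE and pNE. These 4 of 30 are a share near that of all genes, 13.5% called in aNE and 12.9% in pNE. FOXO1, a transcription factor that insulin signalling holds outside the nucleus, measured 31.0 and 32.9 TPM in hPSC, 7.58 and 6.39 TPM in aNE and 5.88 and 6.28 TPM in pNE (-2.05 and -2.22). FOXO4 was lower too (-1.36 and -1.66), and IRS4 (2.20 and 1.30) and TSC2 (1.40 and 1.07) were higher.

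Between pNE and aNE at day 2, limma called 0 of the 30 beside 3.85% of all genes, with 7 at an unadjusted p under 0.05. Of these 7, 4 had a limma adjusted p under 0.05 and fell short only of the size for a call. At day 4 none was higher with posterior origin, and 3, 1 and 3 of 30 were lower in forebrain, midbrain and hindbrain medium, where 7.77%, 5.74% and 6.83% of all genes were called, so these counts are near or below the background. The medians of the 30 were -0.12, -0.03 and -0.02. The lower genes were IRS2, IRS4 and GRB10 in forebrain medium, IRS4 in midbrain medium, and IRS1, IRS2 and IRS4 in hindbrain medium. IRS1, IRS2 and IRS4 encode insulin receptor substrates, docking proteins that link the insulin and IGF1 receptors to PI3 kinase. IRS4 was lower in all 3 media (-2.59, -1.11 and -2.14), from means of 14.9, 2.78 and 5.52 TPM with anterior origin.

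IRS2 measured 53.9 and 56.7 TPM in aNE_T against 19.2 and 21.6 TPM in pNE_T (-1.40 ± 0.15, limma adjusted p = 1.46e-05), and 34.0 and 24.6 TPM in aNE_H against 8.74 and 9.06 TPM in pNE_H (-1.60). IRS1 was lower in pNE_H than in aNE_H (-1.05), and GRB10, an adaptor of the insulin receptor that is itself imprinted, was lower in pNE_T than in aNE_T (-1.20). The kinases downstream of PI3 kinase were not called between origins at day 4.

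Of 16 listed genes around IGF2 on chromosome band 11p15.5, 15 had a row and 11 were tested. With posterior origin at day 4, limma called 0 of 11 in forebrain medium and 0 of 11 in midbrain medium, with 2 and 3 at an unadjusted p under 0.05, and 2 higher in hindbrain medium, CDKN1C and ASCL2. The 2 in forebrain and 3 in midbrain medium also had a limma adjusted p under 0.05, short of the size for a call. Beside the 7.77%, 5.74% and 6.83% of all genes called, so small a list shows nothing particular to this region. ASCL2, a basic helix-loop-helix factor named here after its values were seen, was at 5.46 and 3.39 TPM in pNE_H and at most 0.0667 TPM in aNE_H. Outside pNE_H only replicate 1 of hPSC reached 1 TPM, at 1.12 TPM. ASCL2 was thus tested only through its level in pNE_H, and its call is no result. The medians of the 11 were 0.05, -0.03 and 0.10. CDKN1C, the imprinted gene of a cyclin-dependent kinase inhibitor, was the one that rose from pNE in all 3 media, from 7.94 and 6.59 TPM to between 45.0 and 57.4 TPM. Its log2 differences were 2.59, 2.50 and 2.73 (limma adjusted p of 2.21e-08 or less).

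Unlike IGF2, CDKN1C was also high in day-4 cells of anterior origin, at 78.7 and 77.3 TPM in aNE_T and 78.2 and 68.4 TPM in aNE_M, and it was higher in pNE_H than in aNE_H, at 25.1 and 22.7 TPM, by 1.14. At day 2 it was lower in pNE than in aNE, at 44.8 and 38.6 TPM, by a difference of -2.37. The change from day 2 to day 4 was more positive from pNE than from aNE in each medium, by 1.70, 1.70 and 3.51 (limma adjusted p of 6.04e-05 or less).

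Of 21 imprinted genes elsewhere in the genome, 19 had a row and 16 were tested. At day 2, 6 of 16 were higher and none lower in aNE than in hPSC, beside 13.5% of all genes called, and 2 were higher and 1 lower in pNE, beside 12.9%. DLK1, a transmembrane protein of the Notch ligand family, went from 1.23 and 0.830 TPM in hPSC to 124 and 139.8 TPM in aNE (6.04) and 16.4 and 24.5 TPM in pNE (3.38). Between pNE and aNE, where 3.85% of all genes were called, 3 were lower in pNE, DLK1 (-2.66), NNAT (-1.11) and ZDBF2 (-1.11).

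With posterior origin at day 4, 5 of 16 were lower in forebrain medium, beside 7.77% of all genes, and 2 in hindbrain medium, beside 6.83%, and none was higher. In midbrain medium limma called 0 of 16 beside 5.74%, with 12 at an unadjusted p under 0.05. Of these 12, 9 had a limma adjusted p under 0.05 and fell short only of the size for a call. The medians of the 16 were -0.60, -0.34 and -0.14 in forebrain, hindbrain and midbrain medium. DLK1 measured 803 and 756 TPM in aNE_T against 14.6 and 17.4 TPM in pNE_T (-5.53 ± 0.21, limma adjusted p = 7.45e-10) and 184 and 149 TPM in aNE_H against 32.9 and 21.0 TPM in pNE_H (-2.61).

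NNAT, a small membrane protein of neural tissue, was 782 and 727 TPM in aNE_T against 156 and 166 TPM in pNE_T (-2.22). PLAGL1, a zinc finger transcription factor, was 35.5 and 37.7 TPM in aNE_H against 4.93 and 5.56 TPM in pNE_H (-2.59), but 25.1 and 25.6 TPM in aNE_M and 43.4 and 49.2 TPM in pNE_M. GRB10, named above, belongs to this list as well.

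Of 7 factors of imprint maintenance and of the IGF2-H19 control region, limma called 0 between origins at day 4 in each medium, beside the same shares of all genes, with 1, 2 and 5 at an unadjusted p under 0.05 in forebrain, midbrain and hindbrain medium. In the same order, 0, 0 and 2 had a limma adjusted p under 0.05, short of the size for a call. CTCF, which binds the control region, lay between 48.0 and 61.8 TPM over all 18 libraries. At day 4 it was 48.0 to 51.8 TPM with posterior origin and 53.8 to 61.8 TPM with anterior origin, without a call. The medians of the 7 were -0.06, -0.06 and -0.33. DPPA3, named here after its values were seen, was at 1.19 and 3.27 TPM in hPSC and at most 0.119 TPM in aNE and pNE. Only the hPSC libraries reached 1 TPM. DPPA3 was thus tested only through its level in hPSC, and its call as lower at day 2 is no result.

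**Figure D5:**
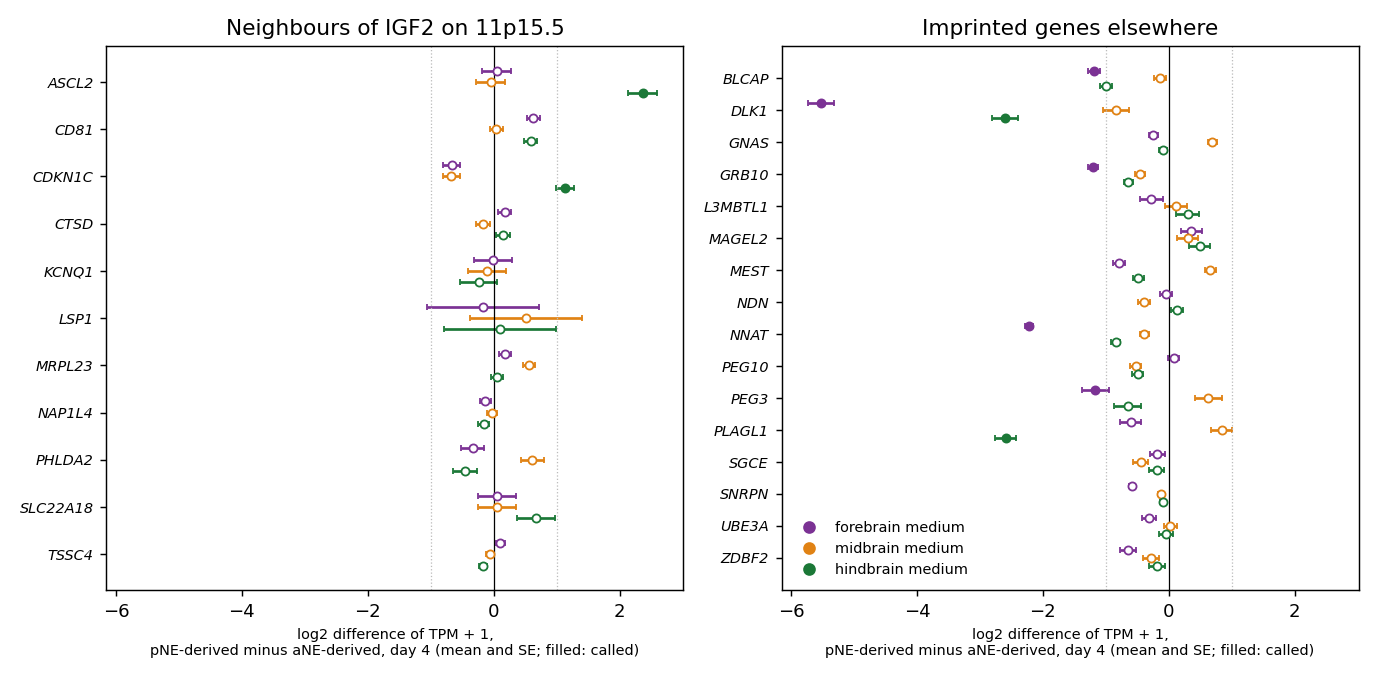
Difference between posterior and anterior origin at day 4 for tested neighbours of IGF2 on 11p15.5 (left) and imprinted genes elsewhere (right). The horizontal axis is the log2 difference of TPM + 1 with its SE, colours are media and filled points passed the call. On the left the filled points are CDKN1C and ASCL2 in hindbrain medium, and on the right DLK1 reaches -5.53 in forebrain medium.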

How the data were processed

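The deposited table held TPM values that the authors computed, 1 row per gene and 1 column per library, 18 columns in all. Per the submitters' processing notes, bcl2fastq, FastQC, Trim Galore, kallisto, deepTools and the build hg38 were used, and their roles, versions and the annotation are not given in the sources used here. Per the labels' protocols, RNA was selected with poly-T beads and libraries were made with random hexamers. Whether strand was used is not given, so a gene and its antisense partner may not be separable. All columns had the same sum, so depth is unknown and no counting interval is given. Of the 37550 rows, 7898 carried no gene symbol.

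Values were analysed as log2(TPM + 1) of the deposited TPM, so that differences of low genes are understated. limma 3.58.1 in R 4.3.3, with a variance trend, fitted 1 mean per group to all 18 libraries (9 residual degrees of freedom) for 17033 genes that reached 1 TPM in 2 or more libraries, and two-sided p-values were adjusted over these genes by the Benjamini-Hochberg method. The fit was tested on simulated data. From it came 18 pairs of groups and 3 differences between origins in the change from day 2 to day 4. Samples were grouped by their titles, and the design text calls the replicates biological.

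The members and gene lists were chosen with earlier results of these data known. No test of IGF2 is given that involves day-4 cells of posterior origin or its change from aNE to day 4. All members were reported, and from each list the genes called with at least 5 TPM in the higher group, at most 4 of largest difference per kind of comparison. ASCL2 and DPPA3 fall short of that level and were named after their values were seen. The 5 genes most like IGF2 were ranked by Pearson's r over group means, among genes with at least 5 TPM in their highest group. Coordinates and upstream sequences are from RefSeq GRCh38.p14 and were matched by symbol, with an upstream sequence for 7 of the 8 measured genes. Alternatives were the pseudocount, the filter, 2 rescalings, a fit of the compared libraries alone, a replicate term, calls by adjusted p alone and leaving out each library.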

Additional observations from a re-analysis of the deposited data

Results flagged for a closer look

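In 6 cases the change from day 2 to day 4 differed between origins by the limma test of the difference itself, pNE minus aNE, on the log2 scale. In forebrain medium these were IGFBP3 (-2.70) and IGFBP5 (-1.49), whose rise was smaller from pNE. IGFBP3 went from a mean of 31.4 to 179 TPM from pNE and from 20.0 to 757 TPM from aNE, and IGFBP5 from 69.8 to 143 TPM and from 25.1 to 148 TPM. In midbrain medium these were INSR (2.12), IGFBP3 (1.41) and IGFBP5 (-2.30). INSR went from a mean of 11.6 to 2.46 TPM from aNE and from 3.96 to 5.06 TPM from pNE, so its means lay in opposite order on the 2 days, with the day-4 difference of 0.80 not called. In hindbrain medium the case was IGFBP5 (-1.12), at 25.1 and 49.1 TPM on days 2 and 4 from aNE and at 69.8 and 61.9 TPM from pNE.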

How the results depend on the processing

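Of 168 member differences, 160 were followed, and 2012 values of them were recomputed under the alternatives. Differences under 0.1 in size were left out, except the 2 named below. The number of sign changes is therefore not a full count. Among the 2012 values, 1908 kept direction and call, 71 became calls, 7 lost a call, 23 untested values of IGF2 moved and 3 changed sign. The sign changes were all in those 2 differences, near 0. IGFBP5 in pNE_T against aNE_T was 0.0162 with median-ratio scaling in place of -0.05, and IGFBP3 in pNE_H against aNE_H, at 0.02, lay between -0.10 and 0.14 when 1 library was left out, with -0.06 without aNE_H replicate 1 and -0.10 without pNE_H replicate 2. With adjusted p alone, without a minimum size, the calls among members were 14 for day 2 against hPSC in place of 6, 6 for pNE against aNE at day 2 in place of 2, 9 between origins at day 4 in place of 4, 17 and 12 from day 2 to day 4 in aNE and pNE in place of 5 and 5, 28 between media in place of 15, and 11 for the difference between origins in place of 6. In a fit of the compared libraries alone, pNE against aNE gave 1 call. Leaving out 1 library gave 6 to 7, 2 to 2, 4 to 5, 5 to 8, 3 to 5, 15 to 16 and 6 to 7 calls in the same order. The largest shift of the median of all genes under a rescaling was -0.0817, with quantile normalization in aNE_T against aNE_H. Same-numbered libraries did not deviate together (r from -0.09 to 0.08 over 36 pairs of groups, 0 over 0.1), and a replicate block left the counts of calls at 6, 2, 4, 5, 5, 15 and 6. With 2 libraries per group and no read depth, small differences of low genes such as INSR are the least certain.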
